A study of Homo sapiens with 4 samples.

Results

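The lysosomal genes described here are 43 genes for acid hydrolases and their helpers, membrane proteins, subunits of the proton pump, the transcription factors TFEB and TFE3, and the glucosylceramide synthase UGCG. They were chosen by symbol, and all 43 were found among the 22187 genes of the series, with expected counts and FPKM summed over identifiers that share a symbol. FPKM is the number of fragments per kilobase of gene length, scaled to the size of the library. RNA was sequenced from KMS18 and KMS28BM, human multiple myeloma cell lines labelled as bone marrow plasma cells. Both carry t(4;14), the translocation that joins part of chromosome 4 to the immunoglobulin heavy chain locus. Each line gave 1 library from cells labelled Luc and control, and 1 library from cells in which PKCα (gene PRKCA, a kinase activated by calcium and diacylglycerol) was stably knocked down. The labels do not give the knockdown sequence or say whether a culture is 1 clone. The comparison addressed here is how the RNA of these genes differs when PKCα is reduced, in each line and over both.

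Lysosomes are acidic organelles that break down proteins, glycans and lipids delivered by endocytosis and autophagy. A V-type ATPase pumps protons into them, most hydrolases arrive carrying a mannose 6-phosphate tag, and TFEB and TFE3 switch on many of their genes through CACGTG boxes with TCA and TGA flanks. Antibody-secreting cells such as myeloma cells handle large amounts of secretory protein and also rely on autophagy.

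The libraries held between 37940949 and 39507281 expected counts, so that counting error is small for all but the lowest genes. PRKCA (chromosome 17, 66302636 to 66810743, plus strand, GRCh38), the targeted gene, had 7.46 then 1.47 FPKM (control, then knockdown) in the KMS18 pair of libraries, 10.86 then 2.43 in the KMS28BM pair. All 9 plasma cell markers reached 1 FPKM, and their summed level lay between 6600 and 8660 FPKM. Lysosome-rich macrophages and monocytes left little trace: 0 of their 9 markers reached 1 FPKM, the summed level was between 0.51 and 1.08 FPKM, and VSIG4 and FCN1 were listed at 0. Of 6 T and NK cell markers, CD3E and TRAC reached 1 FPKM, and the summed level of the list was 11 then 27.7 FPKM in the KMS18 pair, 1.36 then 3.66 in the KMS28BM pair, while CD3D and CD2 stayed between 0 and 0.22 FPKM. Of the plasma cell markers, XBP1 had 360 then 196 FPKM in the KMS18 pair, 472 then 265 in the KMS28BM pair, and SDC1, TNFRSF17, PRDM1, IRF4, MZB1 and SLAMF7 were also lower in the knockdown of each line. CD38 was higher in both knockdowns (26.4 then 29.2 FPKM, 4.99 then 5.99), and JCHAIN, which sets most of the sum, was 5701 then 5376 in KMS18 and 6689 then 6760 in KMS28BM. Of the markers of other cell types, S100A9 (neutrophils) had 1.8 then 6.41 FPKM and PECAM1 (endothelium) 0.54 then 2.25 FPKM in KMS18, against 0 in both libraries and 0.79 then 0.88 FPKM in KMS28BM. The part of these shifts in the results below was not tested.

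All 4 libraries listed every one of the 43 genes, and all 43 passed the filter on low counts. Their median level was 19.6 and 21.1 FPKM in KMS18 (control, then knockdown) and 27.5 and 30.6 FPKM in KMS28BM. Summed FPKM was 1805, 2066, 2332 and 2700 in the same order, which is 0.254%, 0.284%, 0.350% and 0.406% of all FPKM. By mean level over the 4 libraries, CD63, the tetraspanin of late endosomes, CTSD, the main aspartyl protease, and PSAP, the precursor of the saposins, led the order, and UGCG came last. The 2 genes under 1 FPKM in any library were CTSL and CTSH, both in KMS18 alone.

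**Figure D1:**
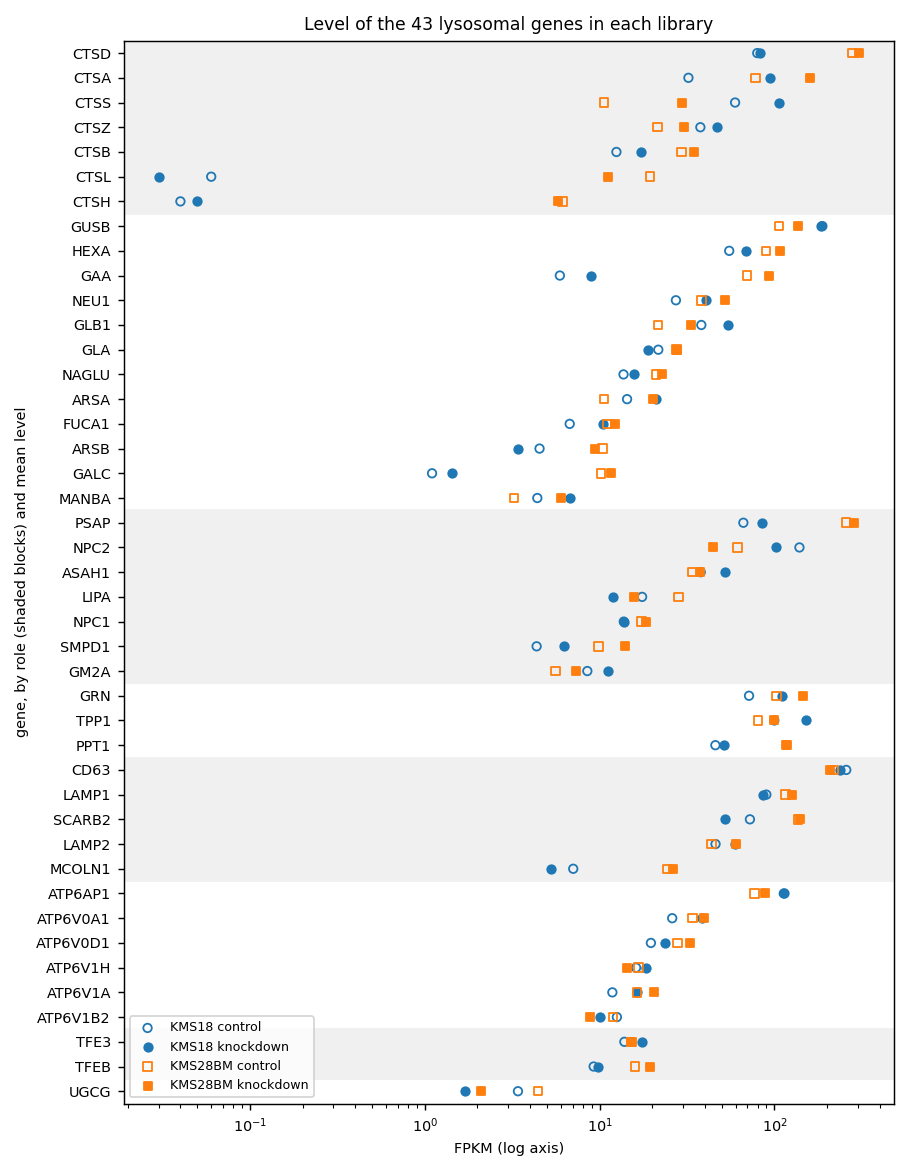
FPKM (log axis) of each of the 43 lysosomal genes in the 4 libraries, grouped by role in shaded and plain blocks and ordered within a block by mean level. Open symbols are controls and filled symbols knockdowns, circles are KMS18 and squares KMS28BM. Most genes lie between 1 and 310 FPKM, and CTSL and CTSH lie far below that in KMS18.

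With PKCα knocked down, 8 lysosomal genes rose and 3 fell over both lines. The 8 were the proteases CTSA and CTSS, the glycan and sulfatide hydrolases MANBA, GLB1, ARSA and NEU1, the precursor GRN and the pump subunit ATP6V0A1. Those that fell were UGCG, the lipase LIPA and the cholesterol carrier NPC2. Across all 14870 genes tested, 3.57% rose and 5.25% fell, 8.82% in either direction (edgeR quasi-likelihood test, Benjamini-Hochberg adjusted p under 0.05, with cell line in the model). The median log2 difference of the 43 was 0.166, beside 0.018 over all genes tested, and 29 of the 43 had a positive value. By line the median of the 43 was 0.259 in KMS18 and 0.117 in KMS28BM, beside 0.020 and -0.008 over all genes. The test has 1 library per line and construct, so it rests on how alike the lines moved, with no repeat cultures within a line. With no filter on low counts, CTSA, CTSS and UGCG alone passed, and with cell line left out of the edgeR model 0 of the 43 did (1 at an unadjusted p under 0.05). Fewer cells of a kind and less RNA per cell cannot be told apart in such bulk samples.

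The promoters of the genes were searched because TFEB and TFE3 bind CACGTG boxes. RefSeq promoters (GRCh38.p14, 250 bases before to 50 after the start) were in the table for 31 of the 43 genes. CTSB, CTSS, HEXA, ARSA, NAGLU, MANBA, ASAH1, PSAP, LAMP2, ATP6V1A, ATP6V1B2 and ATP6V1H had no entry. The letters CACGTG, a palindrome and so the same on both strands, were in 9 of the 31 (29%), beside 12.7% of the 10259 tested genes with a promoter and 7.26% of all 35116 promoters. The longer palindrome TCACGTGA, which contains CACGTG, was in 5 of the 31 (16.1%), beside 2.22% of those tested genes and 0.98% of all promoters. Those 5 were CTSA, GAA, LAMP1, MCOLN1 and ATP6V0D1. The boxes were chosen because they are already known from lysosomal genes. A share above that of all genes is thus a description and no independent support.

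One box each is printed for 2 genes that rose (CTSA and NEU1) and 3 that did not pass the test (GAA, LAMP1 and MCOLN1), with CACGTG or TCACGTGA in capitals. CTSA, GAA and MCOLN1 hold 2 boxes in this window and LAMP1 holds 6, some of them nearer the start than the one printed, and the second box of CTSA is within the printed stretch in lower case. Each stretch is 5′ to 3′ on the strand of its gene, and the boxes in capitals begin 25, 126, 76, 28 and 41 bases before the RefSeq start, in that order, counted at the first base of CACGTG.
CTSA, plus strand, chr20:45891290-45891335: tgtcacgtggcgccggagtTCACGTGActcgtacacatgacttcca
NEU1, minus strand, chr6:31862922-31862967: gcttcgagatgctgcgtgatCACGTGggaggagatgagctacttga
GAA, plus strand, chr17:80101485-80101530: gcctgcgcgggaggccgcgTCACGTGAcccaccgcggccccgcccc
LAMP1, plus strand, chr13:113297191-113297236: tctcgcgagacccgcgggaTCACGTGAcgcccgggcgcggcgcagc
MCOLN1, plus strand, chr19:7522563-7522608: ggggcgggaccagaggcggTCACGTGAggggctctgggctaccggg

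Genes with the box were found among those that rose and those that did not pass. Of the 8 genes that rose, 5 had a promoter in the table and 2 of these, CTSA and NEU1, held CACGTG. Of the 3 that fell, 0 of 3 held it. Of the 32 that did not pass, 23 had a promoter and 7 held it, CTSD, ARSB, CD63 and ATP6V0D1 beside the 3 shown. A match describes letters in a window and says nothing of binding. The related letters TCATGTGA, on either strand, were in 5 of the 31 (GALC, TPP1, PPT1, GRN and CD63), beside 1.21% of tested genes. The letters GGGCGG of the GC box were in 27 of 31, beside 75.7%.

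CTSA, GLB1 and NEU1, which all rose, encode the members of one lysosomal complex, in which cathepsin A (also called protective protein) keeps beta-galactosidase and neuraminidase 1 stable. CTSA (ENSG00000064601, chromosome 20, 45890144 to 45898820, plus strand, GRCh38) read 32.2 FPKM (control) and 94.6 (knockdown) for KMS18, 77.8 and 161 for KMS28BM. Both knockdown libraries lay above both controls, at 2.94 and 2.06 times the control of their own line. With both lines in 1 model the log2 difference came to 1.25 ± 0.15 (SE), with an edgeR adjusted p of 0.00794, and CTSA was the one lysosomal gene past a fold of 1 on log2(FPKM + 1) in both lines. It shares 244 exon bases with NEURL2 and 200 with PLTP, which lie on the opposite strand and reached at most 1.02 and 5.05 FPKM.

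GLB1, beta-galactosidase (chromosome 3, 32996608 to 33097230, minus strand, GRCh38), had 38.15 then 53.9 FPKM in the KMS18 pair of libraries, 21.5 then 33.2 in the KMS28BM pair. Its log2 difference was 0.50 (SE 0.10, edgeR adjusted p = 0.0271), and each knockdown was above its own control although the KMS28BM knockdown stayed below the KMS18 control. NEU1, the sialidase, stood at 27.3 FPKM in the KMS18 control, 40.4 in its knockdown, 38.2 in the KMS28BM control and 52.3 in its knockdown, that is 0.44 ± 0.10 SE in log2 units (edgeR adjusted p = 0.0389). NEU1 lies in the major histocompatibility complex (chromosome 6, 31857659 to 31862906, minus strand, GRCh38), and its reads were split over 8 identifiers for alternate copies of that region, which were summed.

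Among the other proteases CTSS stood out. CTSS, the cysteine protease that trims the class II invariant chain in antigen-presenting cells (chromosome 1, 150730196 to 150765957, minus strand, GRCh38), read 59.5 FPKM (control) and 106 (knockdown) for KMS18, 10.6 and 29.6 for KMS28BM. It rose by 1.09 ± 0.15 SE in log2 units (edgeR adjusted p = 0.0102), with ratios of 1.78 and 2.79 by line. The groups overlapped, as the KMS28BM knockdown stayed below the KMS18 control. The higher ratio belongs to the line with the lower level, and whether the lines differ in this was not tested.

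The remaining cathepsins did not pass the test. CTSD had 79.7 then 82.5 FPKM in the KMS18 pair, 280 then 306 in the KMS28BM pair (0.09 ± 0.10 SE in log2 units, edgeR adjusted p = 0.612). For CTSB, a cysteine protease, the log2 difference was 0.18 (SE 0.10) and for CTSZ, a carboxypeptidase, it was 0.35 (SE 0.11, edgeR adjusted p = 0.0854). CTSL, a cysteine protease, is in effect a measurement of KMS28BM, where it had 19.5 then 11.2 FPKM (1070 and 626 counts), since KMS18 gave 2 counts and 1 count. Its edgeR adjusted p was 0.0534. CTSH, an aminopeptidase, was at 6.12 and 5.80 FPKM in KMS28BM and gave 3 and 4 counts in KMS18.

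Of the 12 hydrolases of glycans and glycosphingolipids, 4 rose and 0 fell, beside 3.57% and 5.25% of all genes tested. Next to GLB1 and NEU1, those that rose were MANBA and ARSA. With 12 genes in the role, the counts are not read as a result about it. MANBA, beta-mannosidase (chromosome 4, 102630770 to 102760994, minus strand, GRCh38), had 4.40 then 6.74 FPKM in the KMS18 pair of libraries, 3.24 then 6.03 in the KMS28BM pair, that is 0.74 ± 0.14 SE in log2 units (edgeR adjusted p = 0.0262). ARSA, the sulfatase that removes sulfate from sulfatide (chromosome 22, 50622754 to 50628173, minus strand, GRCh38), stood at 14.35 FPKM in the KMS18 control, 21.05 in its knockdown, 10.6 in the KMS28BM control and 20.2 in its knockdown, that is 0.68 ± 0.13 SE in log2 units (edgeR adjusted p = 0.0290). For MANBA and for ARSA, the 2 knockdown libraries lay above the 2 controls.

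GAA, the acid alpha-glucosidase that degrades glycogen, read 5.92 FPKM (control) and 8.96 (knockdown) for KMS18, 69.6 and 92.7 for KMS28BM, and it missed the threshold (0.54 ± 0.13 SE in log2 units, edgeR adjusted p = 0.0543). HEXA, the alpha subunit of hexosaminidase A, had 0.21 (SE 0.09, edgeR adjusted p = 0.207) and FUCA1, a fucosidase, 0.32 (SE 0.15, edgeR adjusted p = 0.240). Both had higher FPKM in the knockdown of each line, so they share the sign of the genes that rose without passing the test. GUSB, beta-glucuronidase and a frequent reference gene in PCR, had 188 then 185 FPKM in the KMS18 pair, 106 then 137 in the KMS28BM pair. On counts the log2 difference of GUSB was 0.17 (SE 0.10, edgeR adjusted p = 0.336). In KMS18 its log2 ratio of counts was 0.09, above 0, while the gene length listed was 1503 then 1695 bases. GALC, which cleaves galactosylceramide, NAGLU, which acts on heparan sulfate, GLA, alpha-galactosidase A, and ARSB, a sulfatase of dermatan sulfate, had log2 differences between -0.23 and 0.16.

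Of the 7 genes of lipid breakdown and sterol transfer, 2 fell and 0 rose, beside 5.25% and 3.57% of all genes tested. So few genes allow no reading of these counts as a result about the role. LIPA, the acid lipase that frees cholesterol and fatty acids from lipoprotein lipids (chromosome 10, 89213569 to 89414557, minus strand, GRCh38), had 17.5 then 11.9 FPKM in the KMS18 pair of libraries, 28.2 then 15.7 in the KMS28BM pair. It fell by 0.77 ± 0.12 SE in log2 units (edgeR adjusted p = 0.0143), and the knockdowns, both below both controls, were at 68.2% and 55.7% of their own line. NPC2, the soluble protein that hands cholesterol to NPC1 (chromosome 14, 74476192 to 74494177, minus strand, GRCh38), stood at 139 FPKM in the KMS18 control, 102 in its knockdown, 61.6 in the KMS28BM control and 44.7 in its knockdown. It fell by 0.47 (SE 0.10, edgeR adjusted p = 0.0346), with 73.4% and 72.5% of the control level left in each line, while the groups overlapped because the lines differ in level.

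NPC1, the membrane partner of NPC2, read 13.7 FPKM (control) and 13.9 (knockdown) for KMS18, 17.4 and 18.5 for KMS28BM, a log2 difference of -0.01 (SE 0.10). The sphingolipid genes SMPD1, acid sphingomyelinase (0.40, SE 0.12, edgeR adjusted p = 0.0926), and GM2A, the activator of GM2 hydrolysis (0.34, SE 0.11, edgeR adjusted p = 0.0997), did not pass. ASAH1, acid ceramidase, and PSAP had log2 differences of 0.21 (SE 0.12) and 0.18 (SE 0.10), with higher FPKM in the knockdown of each line.

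UGCG, which makes glucosylceramide, the first step towards the glycosphingolipids that the lysosome later degrades, had the lowest log2 difference of the 43 genes. UGCG (chromosome 9, 111896766 to 111935369, plus strand, GRCh38) had 3.41 then 1.69 FPKM in the KMS18 pair of libraries, 4.45 then 2.09 in the KMS28BM pair. Those levels rest on 514, 255, 684 and 310 counts. Both knockdowns lay below both controls, at 49.6% and 47.0% of the control, and UGCG fell by 1.14 ± 0.15 SE in log2 units (edgeR adjusted p = 0.0102). UGCG is a Golgi enzyme and not a lysosomal protein.

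In 3′ UTRs (GENCODE 29 coding transcripts, GRCh38), the letters AGTCTA were searched because an earlier search of these data, made after its calls, found them among the genes that fell. They were in 10 of the 43 lysosomal genes (23.3%), beside 25.4% of 12775 tested genes and 54.1% of the 750 among these that fell. Of the 3 lysosomal genes that fell, UGCG and LIPA held AGTCTAA and NPC2 did not hold AGTCTA, and of the 8 that rose 0 held AGTCTA, beside 16.1% of all 503 that rose. AGTCTAA was also in GALC and SCARB2, which did not pass, and so in 4 of the 43 (9.3%), beside 9.07% of tested genes and 27.9% of those that fell. The longer CAGTCTA was in CTSL and TFE3. The other 6 genes with AGTCTA were CTSB, HEXA, ARSB, GALC, GM2A and SCARB2. UGCG held 4 such sites. The sites of UGCG and LIPA with AGTCTAA, and that of CTSL, are printed with the letters in capitals. CTSL did not pass the test, and its difference rests on KMS28BM. Not printed are the longer sites of GALC (log2 difference 0.16), SCARB2 (-0.07) and TFE3 (0.09), which lay near 0. Because the letters were found in these same data, their shares among genes that fell or rose are a description and no independent support. The part of these letters in the results was not tested.
UGCG: agaactataggAGTCTAAatttaataaat
LIPA: aagagctctctAGTCTAAcggtcttgtag
CTSL: gaattcatcttCAGTCTAccagcccccgc

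GRN, the precursor of the lysosomal granulins (chromosome 17, 44345086 to 44353102, plus strand, GRCh38), stood at 71.5 FPKM in the KMS18 control, 111 in its knockdown, 103 in the KMS28BM control and 147 in its knockdown. Both knockdowns were above both controls, and GRN rose by 0.53 ± 0.10 SE in log2 units (edgeR adjusted p = 0.0231). TPP1, a tripeptidyl peptidase, read 99.8 FPKM (control) and 151 (knockdown) for KMS18, 80.3 and 99.99 for KMS28BM (0.38 ± 0.11 SE in log2 units, edgeR adjusted p = 0.0842). PPT1, a thioesterase that removes fatty acids from proteins, had 0.02 (SE 0.10), and 27.3% of its exon bases overlap CAP1 on the other strand, so that its level is uncertain in a library that does not keep strand.

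Of the 5 membrane proteins 0 passed the test, beside 8.82% of all genes tested, which is too few genes for a result about the role. LAMP2, a major glycoprotein of the lysosomal membrane that also serves chaperone-mediated autophagy, had 46.0 then 59.5 FPKM in the KMS18 pair of libraries, 43.7 then 60.6 in the KMS28BM pair (0.36 ± 0.09 SE in log2 units, edgeR adjusted p = 0.0624). LAMP1, its paralogue, had -0.03 (SE 0.10), CD63 had -0.13 (SE 0.09), and MCOLN1, the calcium channel of the lysosome, had -0.09 (SE 0.14). SCARB2, the receptor that carries glucocerebrosidase to the lysosome, had 72.3 then 52.4 FPKM in the KMS18 pair, 136 then 141 in the KMS28BM pair (-0.07, SE 0.13).

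SCARB2 was also listed with a longer gene length in the knockdowns. The tables give a length per gene and library that differs between libraries where a gene has several transcripts. For SCARB2 it was 3227 bases in the KMS18 control and 3727 in its knockdown, 2923 in the KMS28BM control and 3357 in its knockdown. SCARB2 was the 1 of the 43 genes with a length at least 1.1 times longer in the knockdown of both lines, a limit set after the values were seen, beside 2.71% of the 14003 genes with a length in every library. In 30 of the 43 genes the length differed by at most 5% between the libraries of each line. For ATP6V0A1, of the proton pump, it was 2694 then 2830 bases in KMS18, 2747 then 3199 in KMS28BM, and a longer length lowers the FPKM for a given count.

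The proton pump gave 1 call among 6 genes, beside 8.82% of all genes tested, and this count is not read as a result about the pump. ATP6V0A1, the a1 subunit through which protons pass the membrane (chromosome 17, 42458844 to 42522611, plus strand, GRCh38), stood at 26 FPKM in the KMS18 control, 38.4 in its knockdown, 34.0 in the KMS28BM control and 39.55 in its knockdown, and rose by 0.47 ± 0.10 SE in log2 units of counts (edgeR adjusted p = 0.0370). Both knockdowns lay above both controls, but with limma on log2(FPKM + 1) ATP6V0A1 did not pass. ATP6V1A, the catalytic subunit, came to 0.36 (SE 0.10, edgeR adjusted p = 0.0677), and ATP6V1B2, its partner in the catalytic ring, had -0.43 (SE 0.11, edgeR adjusted p = 0.0594). ATP6V1A and ATP6V1B2 thus lay on opposite sides of 0, in each line. ATP6V0D1 had 0.26 (SE 0.11), and ATP6AP1, an accessory subunit, and ATP6V1H, a regulatory one, had 0.03 (SE 0.10) and -0.03 (SE 0.15).

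The regulators themselves did not pass. TFEB read 9.24 FPKM (control) and 9.84 (knockdown) for KMS18, 15.9 and 19.5 for KMS28BM (0.13 ± 0.11 SE in log2 units, edgeR adjusted p = 0.529). TFE3 had 13.85 then 17.5 FPKM in the KMS18 pair of libraries, 15.2 then 15.0 in the KMS28BM pair (0.09 ± 0.12 SE in log2 units, edgeR adjusted p = 0.689). Both proteins are known to be controlled mainly by phosphorylation and export from the nucleus, which RNA levels do not show.

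**Figure D2:**
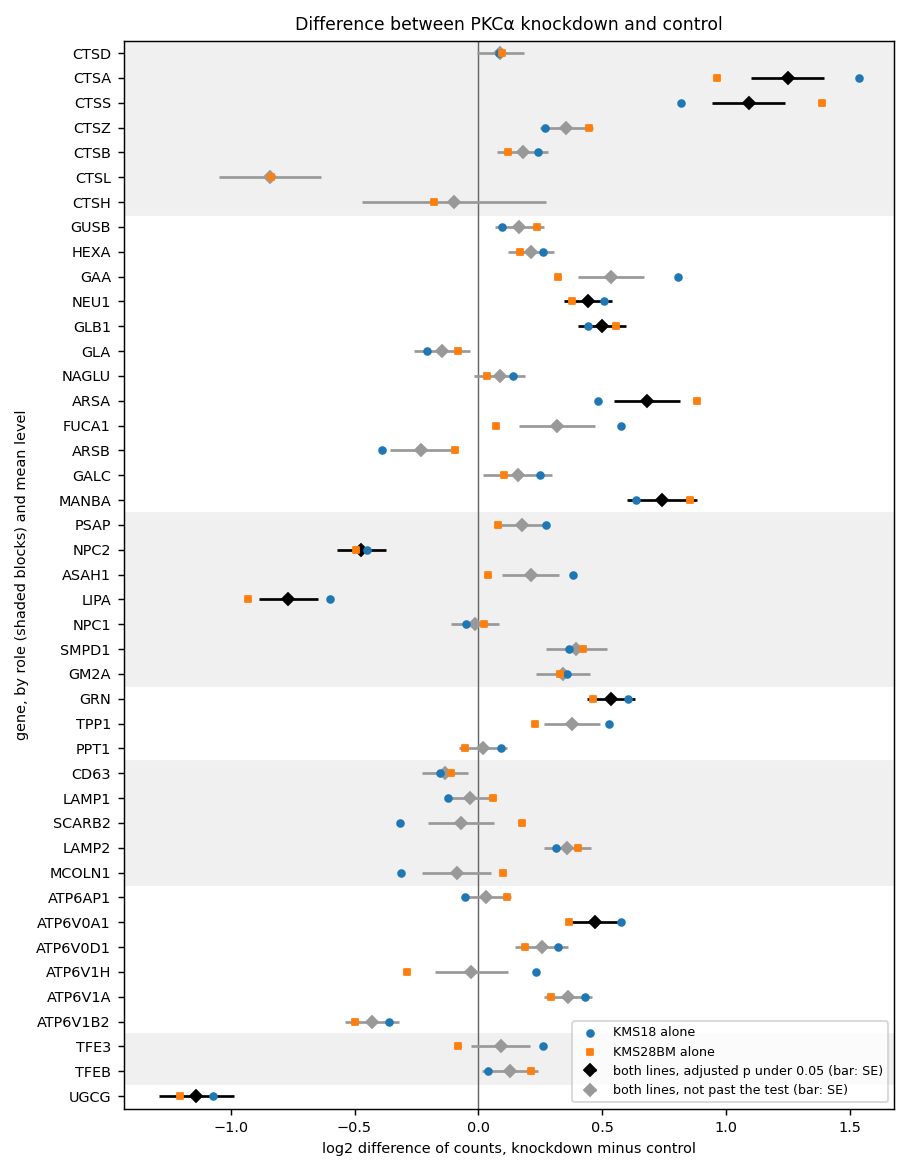
Log2 difference of counts, knockdown minus control, for the 43 lysosomal genes, grouped by role as in the plot of levels. Diamonds are the estimates over both lines with their SE (black where the adjusted p was under 0.05), circles are KMS18 alone and squares KMS28BM alone, and the KMS18 points of CTSL and CTSH are left out because they rest on 1 to 4 counts. CTSA and CTSS lie furthest right, and UGCG furthest left.

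Within the lines, sizes alone were compared, as a line has 1 library per construct. A gene passed the size rule at a difference of 1 on log2(FPKM + 1), a scale that understates low genes, where either library reached 1 FPKM. In KMS18, CTSA alone was higher and 0 were lower, beside 0.818% higher and 0.647% lower among 11742 genes. In KMS28BM, CTSA and CTSS were higher and 0 were lower, beside 1.24% and 0.751% among 11455 genes. The log2 ratio of counts had the same sign in both lines for 34 of the 43 genes (79.1%), beside 69.4% of all genes tested, and the difference on log2(FPKM + 1) for 35 (81.4%), beside 66.4%. The 95% intervals of the count ratio (exact, scaled by library size, for counting error only) lay on opposite sides of 0 for 5 genes, of which SCARB2 (-0.32 in KMS18, 0.18 in KMS28BM) and ATP6V1H (0.23 and -0.29) were the widest apart. For 2 of the 5, PPT1 and ATP6AP1, the difference on log2(FPKM + 1) was above 0 in both lines, so their opposite signs hold on the scale of counts alone. Such intervals were not counted over all genes, so the 5 are not read as a result about the lysosomal genes.

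**Figure D3:**
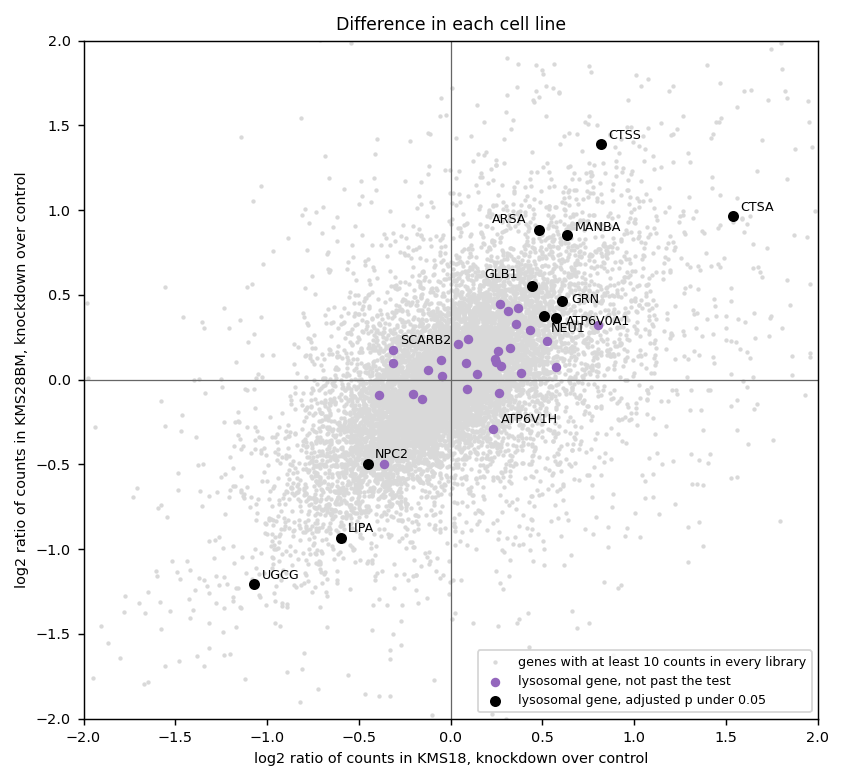
Log2 ratio of counts, knockdown over control, in KMS18 (horizontal axis) and KMS28BM (vertical axis). Grey points are the tested genes with at least 10 counts in every library, purple points are lysosomal genes that did not pass the test, and black points those with an adjusted p under 0.05. The 8 genes that rose lie to the upper right of the origin and the 3 that fell to the lower left, while SCARB2 lies to the upper left and ATP6V1H to the lower right.

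More of the lysosomal genes passed the test between the lines than between the constructs. In the same fit, 24 were higher and 11 lower in KMS28BM than in KMS18, where 30.6% and 32.3% of all genes were (62.9% in either direction). The 24 include CTSL and CTSH, which passed the filter on low counts through KMS28BM. The median log2 difference, KMS28BM minus KMS18, was 0.374 for the 43 and -0.021 for all genes. With 1 library per line and construct, the line and the culture cannot be told apart.

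CTSL and CTSH were all but absent from KMS18. CTSL gave 2 and 1 counts there and 1070 and 626 in KMS28BM, a ratio of 489 in the controls (95% interval 135 to 4040, counting error only). CTSH gave 3 and 4 counts in KMS18 and 221 and 204 in KMS28BM, a control ratio of 67.3 (22.7 to 329). Both genes passed the filter on low counts through KMS28BM, so a difference was bound to appear.

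Among the genes well above 0 in both lines, GAA was furthest apart, with the levels given above, and 3.78 ± 0.15 SE in log2 units higher in KMS28BM (edgeR adjusted p = 2.55e-06). GALC stood at 1.1 FPKM in the KMS18 control, 1.43 in its knockdown, 10.2 in the KMS28BM control and 11.6 in its knockdown (log2 difference 3.12, SE 0.15). MCOLN1 read 7.06 FPKM (control) and 5.30 (knockdown) for KMS18, 24.4 and 26.2 for KMS28BM (2.12, SE 0.14). In GAA, GALC and MCOLN1 the 2 libraries of a line lay close together and far from the other line. PSAP and CTSD, already among the highest genes in KMS18, had 1.79 (SE 0.11) and 1.77 (SE 0.10), and TFEB had 0.75 (SE 0.11, edgeR adjusted p = 0.00119).

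The opposite side was led by CTSS (-2.05 ± 0.15 SE in log2 units, edgeR adjusted p = 3.98e-05), and NPC2 (-1.21, SE 0.10). GLB1 (-0.84, SE 0.10), CTSZ (-0.74, SE 0.11), GUSB (-0.72, SE 0.10), ASAH1, GM2A, ATP6AP1, TPP1, MANBA and CD63 were the others lower in KMS28BM. Of the cathepsins well above 0 in both lines, CTSA, CTSB and CTSD were higher in KMS28BM and CTSS and CTSZ higher in KMS18. CTSH and CTSL were also higher in KMS28BM, a difference that was bound to appear. ARSA, FUCA1, LAMP2, ATP6V0A1, ATP6V1B2, ATP6V1H, TFE3 and UGCG did not pass the test between lines. Of the 11 genes that moved with the knockdown, CTSA, NEU1, GRN and LIPA were higher in KMS28BM and CTSS, GLB1, MANBA and NPC2 higher in KMS18.

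Related genes were read from 8 further lists, in the same test of knockdown against control. Over all genes in that test 3.57% rose and 5.25% fell, 8.82% in either direction. Among 28 other hydrolases and activators that were tested, 4 rose and 2 fell (median 0.187). IFI30, the thiol reductase of antigen processing, rose by 1.12 (SE 0.21, edgeR adjusted p = 0.0247), SGSH, a heparan sulfatase, by 0.54 (SE 0.11), and PLD3, a nuclease, in KMS18 from 69.1 to 97.8 FPKM and in KMS28BM from 110 to 146. HYAL2, a hyaluronidase, fell by 0.97 (SE 0.14) and FUCA2 by 0.67 (SE 0.15). Of 9 other proteases tested, CTSO, a cathepsin, alone rose, in KMS18 from 8.26 to 17.3 FPKM and in KMS28BM from 7.50 to 15.2 (0.98 ± 0.11 SE in log2 units, edgeR adjusted p = 0.0067), and 0 fell.

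Of 16 other pump subunits tested, 2 rose and 3 fell (median 0.093), beside 3.57% and 5.25% of all genes. ATP6V0E2 (0.47, SE 0.10) and ATP6V0C, the proteolipid of the rotor ring (0.45, SE 0.10), rose, and ATP6V0A2 (-0.97, SE 0.12), ATP6V1C1 (-0.54, SE 0.10) and ATP6V0B (-0.44, SE 0.09) fell. With ATP6V0A1 in the first set, the a1 subunit rose while the a2 subunit fell, in KMS18 from 7.22 to 4.62 FPKM and in KMS28BM from 4.89 to 2.59. The a1 and a2 proteins are alternative forms of one subunit, and a2 is known mainly from the Golgi and early endosomes.

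Of 29 other membrane proteins tested, 3 rose and 1 fell. SLC36A1, an amino acid exporter, rose by 1.08 (SE 0.13), SIDT2 by 0.73 (SE 0.14) and LAPTM4A by 0.57 (SE 0.10), and DRAM2 fell by 0.58 (SE 0.12). Among 19 other regulators FLCN, the folliculin that acts on the Rag GTPases and so on TFEB and TFE3, rose by 0.79 (SE 0.12, edgeR adjusted p = 0.0145), and YWHAG, a 14-3-3 protein, fell by 0.50 (SE 0.10). Among 36 sorting genes M6PR, a mannose 6-phosphate receptor, rose by 0.54 (SE 0.12), and GGA2 (-0.65, SE 0.10), an adaptor for that receptor, and VPS11 (-0.51, SE 0.11) fell. Of 39 autophagy genes 3 rose (ATG9A, CALCOCO2 and OPTN) and 2 fell (TECPR1 and VPS11, the latter also a sorting gene). Beside these counts, 3.57% of all genes tested rose and 5.25% fell. With so few calls per list, the counts in this paragraph are not read as a result about the lists.

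Around UGCG, 7 of 31 sphingolipid genes tested rose and 0 fell (median 0.043), beside 3.57% and 5.25% of all genes. CPTP, a ceramide 1-phosphate carrier, rose by 1.34 (SE 0.13, edgeR adjusted p = 0.00482), and CERK, the ceramide kinase, by 0.93 (SE 0.10). ST3GAL5, which makes ganglioside GM3 further along the pathway that UGCG opens, rose by 1.0 (SE 0.12), in KMS18 from 5.25 to 10.9 FPKM and in KMS28BM from 7.67 to 19.2. The others, named after their values were seen, were SPTLC3 (2.66, the largest log2 difference of the list, edgeR adjusted p = 0.0143), GBA2, SPHK2 and SGPL1. They are not one branch, since SPTLC3 makes sphingoid bases while GBA2, SPHK2 and SGPL1 act in breakdown. SPTLC3 was also lower in KMS28BM than in KMS18 in the test between lines. Its level in each line is not given here, so the size of its difference is to be read with care.

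**Figure D4:**
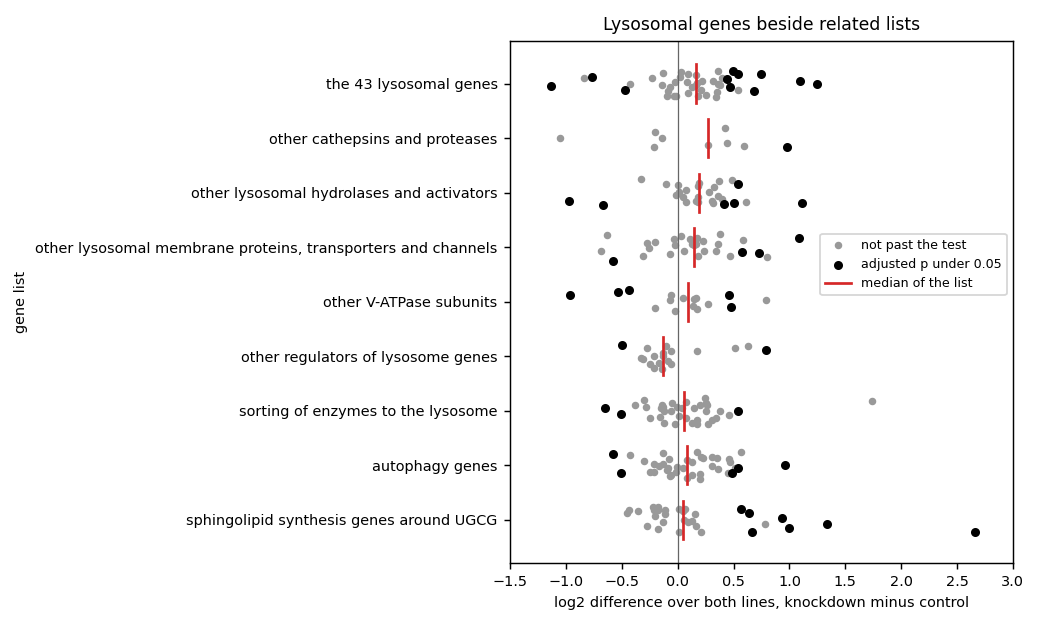
Log2 difference over both lines, knockdown minus control, of each tested gene in the set of 43 and in 8 related lists. Black points passed the test, grey points did not, red bars are list medians, and vertical position within a list is random. The set of 43 and the lists of other hydrolases and membrane proteins have medians of 0.166, 0.187 and 0.147, and the list of other regulators has -0.137.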

How the data were processed

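RNA from 4 cultures was sequenced (2 cell lines, each with 1 control and 1 PKCα knockdown), from TruSeq RNA version 2 libraries, per the labels' protocols. The authors deposited 1 table per library with an expected count (an estimated count, not always whole), an FPKM value and a gene length per identifier, per the file headers. STAR, HISAT and Bowtie2 are listed as tools, and hg19 and GRCh37 as builds, in the submitters' processing notes, without their roles. What program counted the fragments is not given here. No table holds coordinates, so positions come from GENCODE 29 on GRCh38 by gene identifier.

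Expected counts and FPKM were summed by symbol (23844 identifiers, 22187 genes). Counts were rounded and tested with edgeR 4.0.16 (R 4.3.3) by the quasi-likelihood test, with TMM scaling, the default filter (minimum count 10, 14870 genes), and cell line and construct in the model. This left 1 residual degree of freedom and a prior of 5.85. The SE given with edgeR values is the size of the log2 difference divided by the square root of the quasi-likelihood F statistic. Libraries pair by cell line, as the labels give. Deviations from the construct means of the 2 libraries of a line had a correlation of 0.951 across genes. P-values were adjusted by Benjamini-Hochberg over all genes at 0.05. On simulated data with known changes, the test recovered 75 of 100 genes changed by 1 on the log2 scale and 87 of 100 changed by 2, among 14674 genes, with 7 false calls. The simulation set the spread of a gene from its level alone and gave each changed gene the same change in both lines. Real genes can depart from both, so these counts do not measure the test on the real libraries. DESeq2 1.42.0 and limma 3.58.1 were alternatives. The members, lists and motifs were chosen with earlier results of these data known. The rule for naming genes takes PRKCA, all 43 genes, every other pump subunit that passed, and the 3 genes with the smallest p in each direction of each further list.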

Additional observations from a re-analysis of the deposited data

Results flagged for a closer look

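For 5 genes the counts, scaled by library size, differed between constructs in opposite directions in the 2 lines, each beyond counting error. The log2 ratio of counts, knockdown over control, was -0.316 in KMS18 and 0.176 in KMS28BM for SCARB2, and 0.233 and -0.290 for ATP6V1H. It was -0.123 and 0.058 for LAMP1, -0.053 and 0.117 for ATP6AP1, and 0.091 and -0.054 for PPT1. On log2(FPKM + 1) PPT1 (0.156 and 0.016) and ATP6AP1 (0.005 and 0.192) were above 0 in both lines, so their opposite signs depend on the scale, while SCARB2, ATP6V1H and LAMP1 kept opposite signs. Each line has 1 library per construct, so the difference between the lines was not tested. Over all genes tested, the log2 ratio of counts had the same sign in both lines for 69.4%. Intervals on opposite sides of 0 were not counted over all genes, so the 5 are not read as particular to the lysosomal genes.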

How the results depend on the processing

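The 11 calls among the 43 genes stayed with median of ratios scaling, at 5 CPM in at least 2 libraries (12 calls, LAMP2 added) and with DESeq2 (14, with GAA, TPP1 and LAMP2 added). Limma on log2(FPKM + 1) gave 11 and on log2(FPKM + 0.1) 13, of which 10 were shared with the 11 in each case, and both lost ATP6V0A1. With no filter on low counts 3 genes passed, 2 higher (CTSA and CTSS) and 1 lower (UGCG), and 367 of all genes against 1312 (124 higher and 243 lower). Limma on log2(FPKM + 1) called 487 of all genes lower, against 781. Without the cell line block, so without the pairing of libraries by line, 0 of the 43 passed the edgeR test in either direction (1 at an unadjusted p under 0.05) and 0 of all genes (215). In the comparison of lines without the construct block, 21 of the 43 passed, 14 higher and 7 lower in KMS28BM. Genes near 0 changed sign: NPC1 to 0.014 at 5 CPM, 0.049 and 0.051 with limma at a pseudocount of 1 and 0.1, LAMP1 to 0.030 in both limma fits, CTSH to 0.012 with limma at 0.1, and, without the block, PPT1 to -0.010, SCARB2 to 0.007 and MCOLN1 to 0.021. The median of the 43 ran from 0.117 to 0.259 with 1 line left out. Within a line at a fold of 0.5, 10 genes were higher and 2 lower in KMS18, and 6 and 3 in KMS28BM, and at a pseudocount of 0.1 UGCG was 1 gene lower in KMS28BM. Depth limits the low genes: CTSL and CTSH had at most 4 counts per KMS18 library.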
